A study of Mus musculus with 6 samples.

Results

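The genes described here are the 10 members of the NF-κB system named by gene symbol, 5 that encode Rel-homology subunits (Nfkb1, Nfkb2, Rel, Rela and Relb) and 5 that encode IκB proteins (Nfkbia, Nfkbib, Nfkbie, Nfkbid and Nfkbiz), out of 49671 genes in the deposited tables. Each symbol was found on exactly 1 row, and all 10 lie on autosomes. RNA came from splenic CD3+ T cells of female F1 mice born to C57BL/6 (mus) mothers that carried 1 deleted copy of Xist and to M. m. castaneus (cast) fathers, a cross the submitters use as a model of skewed X inactivation. One group of 3 libraries was unstimulated (day 0), collected straight after enrichment of the cells on columns. The other group of 3 was stimulated for 48 hours (day 2) in culture with plate-bound anti-CD3 at 1 μg/ml and soluble anti-CD28 at 10 μg/ml, antibodies that engage the T cell receptor complex and its main costimulatory receptor. The labels call the replicates biological and give no age.

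NF-κB is a family of transcription factors that bind DNA as dimers of Rel-homology subunits. Rela (p65), Rel (c-Rel) and Relb carry activation domains, whereas Nfkb1 and Nfkb2 encode long precursors, p105 and p100, that are processed to the DNA-binding subunits p50 and p52 and that otherwise act as inhibitors themselves. The classical inhibitors IκBα (Nfkbia), IκBβ (Nfkbib) and IκBε (Nfkbie) hold dimers in the cytoplasm until IκB kinase marks them for destruction, while IκBNS (Nfkbid) and IκBζ (Nfkbiz) act in the nucleus on dimers already bound to DNA. In T cells the pathway is switched on from the T cell receptor, and several of the inhibitor genes are themselves classical NF-κB targets, which gives the pathway its feedback.

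Because several of these genes are known NF-κB targets, promoter windows of 300 bases (250 before and 50 after an annotated start, RefSeq on GRCm38.p6, the mm10 assembly) were searched on both strands for the κB consensus. Windows were at hand for 7 of the 10 genes, and 5 of these 7 (71.4%) held a match in at least 1 window, against 9.55% of 27025 genes. Those with a match were Nfkb2, Rel, Nfkbia, Nfkbie and Nfkbid; the windows of Rela and Nfkbib held none. The 4 windows below belong to a pair of genes that rose with stimulation (Nfkb2 and Rel) and a pair that were lower in the deposited values (Nfkbia and Nfkbie). The call of Nfkbia was not kept in all alternatives run. The windows are printed 5′ to 3′ in the direction of the gene with the matches in capitals (overlapping matches run together).
Nfkb2, chr19:46304487-46304786, plus strand: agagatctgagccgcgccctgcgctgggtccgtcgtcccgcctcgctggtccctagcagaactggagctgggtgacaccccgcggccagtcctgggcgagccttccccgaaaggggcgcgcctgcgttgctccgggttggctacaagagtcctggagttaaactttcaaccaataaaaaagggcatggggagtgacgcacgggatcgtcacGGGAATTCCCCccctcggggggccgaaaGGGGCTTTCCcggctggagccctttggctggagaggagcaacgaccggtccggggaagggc
Rel, chr11:23770920-23771219, minus strand: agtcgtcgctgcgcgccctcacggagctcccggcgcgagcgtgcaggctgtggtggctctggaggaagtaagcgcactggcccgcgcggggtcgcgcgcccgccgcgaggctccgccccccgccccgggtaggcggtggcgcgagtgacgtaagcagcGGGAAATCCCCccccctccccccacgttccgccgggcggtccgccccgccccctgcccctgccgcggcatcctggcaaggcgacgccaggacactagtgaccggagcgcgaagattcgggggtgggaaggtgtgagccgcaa
Nfkbia, chr12:55492598-55492897, minus strand: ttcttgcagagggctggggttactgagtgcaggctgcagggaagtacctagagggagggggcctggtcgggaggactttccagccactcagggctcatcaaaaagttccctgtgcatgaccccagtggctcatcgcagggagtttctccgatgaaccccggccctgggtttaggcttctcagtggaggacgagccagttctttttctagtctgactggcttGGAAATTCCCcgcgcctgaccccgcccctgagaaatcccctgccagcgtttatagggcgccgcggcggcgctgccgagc
Nfkbie, chr17:45555450-45555749, plus strand: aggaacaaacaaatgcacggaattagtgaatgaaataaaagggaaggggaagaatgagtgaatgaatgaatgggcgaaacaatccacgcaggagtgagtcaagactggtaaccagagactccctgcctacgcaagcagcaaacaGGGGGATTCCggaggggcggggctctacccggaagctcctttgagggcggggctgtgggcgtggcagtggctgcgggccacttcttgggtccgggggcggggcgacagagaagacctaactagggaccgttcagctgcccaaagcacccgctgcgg
In the Nfkb2 window the palindromic match began at position -39 from the start and a further match at -11. The single match of Nfkbia began at -29 and lay on the opposite strand, that of Nfkbie began at -106, and the overlapping matches of Rel began at -92. A second Nfkb2 window, at a start further downstream, held GGGACTTTCC. Matching windows were thus found both among genes that rose and among genes that fell (Nfkbie, and Nfkbia in the deposited values). A match describes the letters of the C57BL/6J reference and is not evidence of binding.

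**Figure D1:**
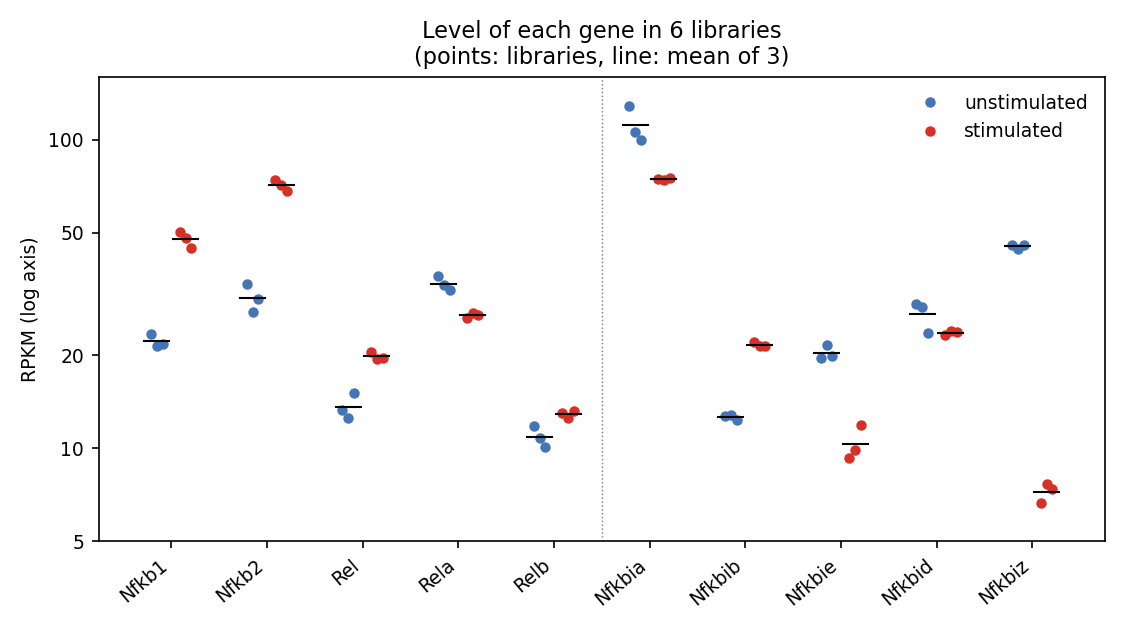
RPKM of each of the 10 genes (log axis) in the 3 unstimulated (blue) and 3 stimulated (red) libraries, with the mean of each group as a line. The blue and red points are apart for 9 genes and overlap for Nfkbid, and Nfkbiz falls from the second highest to the lowest level.

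Levels were compared per gene length, as RPKM (reads per kilobase of gene per M reads, both alleles together). In unstimulated cells Nfkbia stood highest at 111 ± 14.9 RPKM (SD, n = 3, as for all group values below), followed by Nfkbiz, Rela, Nfkb2, Nfkbid, Nfkb1, Nfkbie, Rel, Nfkbib and Relb, the lowest at 10.9 ± 0.89. Within that order the ranges over libraries overlapped between Rela and Nfkb2, Nfkb2 and Nfkbid, Nfkb1 and Nfkbie, and Rel and Nfkbib. After stimulation Nfkbia was still highest at 74.8 ± 0.60 RPKM, close above Nfkb2 at 71.2 ± 2.73, and the order went on with Nfkb1, Rela, Nfkbid, Nfkbib, Rel, Relb, Nfkbie and Nfkbiz, with no neighbours overlapping. The plot of levels in each library shows this reordering.

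All 10 genes passed the filter on low values (RPKM of 1 or more in 3 or more libraries). Of the 10, 9 changed with stimulation (limma, Benjamini-Hochberg adjusted p under 0.05 over all 13288 genes tested), 5 higher and 4 lower. The background was high, since 80.1% of all tested genes passed, 31.2% higher and 48.9% lower, so that the number of changed members is close to what holds for the table as a whole. The RPKM ranges of the groups did not overlap for 9 of the 10 genes, against 83.5% of tested genes. The median tested gene moved by -0.24 on the log2(RPKM + 1) scale and the median of the 10 genes was 0.02, and values relative to that median are given where they alter the reading. Fold changes below are differences of mean log2(RPKM + 1), stimulated minus unstimulated, with their standard error (SE).

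The precursor genes rose most. Nfkb1 was at 23.5, 21.5 and 21.7 RPKM in the unstimulated libraries 1 to 3 and at 50.4, 48.2 and 44.7 in the stimulated ones, a 2.15-fold rise in the mean (log2 1.07, SE 0.07, adjusted p = 1.3e-05, limma). Nfkb2 was at 34.1, 27.6 and 30.5 RPKM unstimulated and at 73.9, 71.4 and 68.4 stimulated, a 2.32-fold rise (log2 1.19, SE 0.08, adjusted p = 2.1e-05). For both genes every stimulated library lay above every unstimulated one by more than the spread within either group. On the opposite strand, exons of the lncRNA gene AC114539.1 cover 11.6% and those of Psd 6.52% of the exon length of Nfkb2. Psd was at 0.179 RPKM or less in the group means and AC114539.1 was not analysed here, so reads of Nfkb2 and of that lncRNA cannot be told apart if counting did not use strand. The share of tested genes with a lower fold change was 88.7% for Nfkb1 and 90.4% for Nfkb2.

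The subunits with an activation domain moved less. Rel and Relb were higher in stimulated cells, and Rela had no settled direction. Rel, the c-Rel gene, was at 13.3, 12.6 and 15.1 RPKM unstimulated and at 20.5, 19.5 and 19.7 stimulated (log2 0.51, SE 0.08, limma adjusted p = 0.00071). The 3 stimulated values lay above all unstimulated ones and closer together. Relb, the partner of p52 in the alternative pathway, was at 11.8, 10.8 and 10.1 RPKM unstimulated and at 12.97, 12.5 and 13.2 stimulated (log2 0.23, SE 0.07, limma adjusted p = 0.023). Its groups did not overlap, but the call was lost on leaving out unstimulated replicate 2 (adjusted p = 0.0598) or stimulated replicate 1, 2 or 3 (adjusted p = 0.0669, 0.0518 and 0.0758).

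Rela, which encodes p65, was the subunit gene that was lower in stimulated cells as deposited. Its RPKM was 36.2, 33.8 and 32.5 unstimulated and 26.4, 27.5 and 27.0 stimulated, so that the groups were apart (log2 -0.33, SE 0.06, limma adjusted p = 0.0016). Relative to the median tested gene the difference was -0.09, after median centring it did not pass (log2 -0.07, adjusted p = 0.48), and on summed allelic counts it was 0.08 with edgeR and 0.05 with DESeq2 (adjusted p = 0.469 and 0.69). Rela therefore has no settled direction.

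Among the classical inhibitors Nfkbia and Nfkbie were lower and Nfkbib higher. Nfkbia was at 128, 106 and 99.8 RPKM unstimulated and at 74.7, 74.3 and 75.5 stimulated (log2 -0.56, SE 0.10, limma adjusted p = 0.0015). The groups were apart, with unstimulated replicate 1 highest and the stimulated libraries nearly alike. The call was lost after median centring (log2 -0.30, adjusted p = 0.0689) and on summed allelic counts (log2 -0.13 with edgeR, adjusted p = 0.323, and -0.16 with DESeq2, adjusted p = 0.241). Nfkbie was at 19.6, 21.6 and 19.9 RPKM unstimulated and at 9.30, 9.84 and 11.9 stimulated, 1.97-fold lower (log2 -0.92, SE 0.10, adjusted p = 0.00014), and this fall passed under every scaling, count model and omission of a library that was run.

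Nfkbib went the other way. It was at 12.7, 12.9 and 12.3 RPKM unstimulated and at 22.1, 21.5 and 21.5 stimulated, a 1.72-fold rise (log2 0.74, SE 0.05, limma adjusted p = 2e-05). The SD was 0.28 and 0.37 RPKM, and the 3 stimulated libraries were all far above the unstimulated ones. Exons of Ccer2 and Sirt2 on the opposite strand cover 14.5% and 1.94% of the exon length of Nfkbib. Ccer2 was at 0.192 RPKM unstimulated and 0.0649 stimulated, and Sirt2 at 8.81 and 8.06. How reads of the shared exons were assigned is not stated, and their part in the Nfkbib values was not tested.

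The nuclear IκB genes differed most from each other. Nfkbiz was at 45.6, 44.2 and 45.6 RPKM unstimulated and at 6.63, 7.65 and 7.38 stimulated, 6.25-fold lower (log2 -2.49, SE 0.06, limma adjusted p = 6.6e-07). This was the largest change of the 10 genes and kept its call in all alternatives run, and 4.49% of tested genes had a lower value. Nfkbid was at 29.3, 28.8 and 23.6 RPKM unstimulated and at 23.3, 23.9 and 23.8 stimulated, so that unstimulated replicate 3 sat among the stimulated libraries. The difference did not pass (log2 -0.19, SE 0.09, 95% interval -0.40 to 0.03, limma adjusted p = 0.0928). Without unstimulated replicate 3 it did (log2 -0.28, adjusted p = 0.0014), whereas after median centring (0.07) and on summed allelic counts (0.19 with edgeR, 0.16 with DESeq2) it was positive and did not pass.

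**Figure D2:**
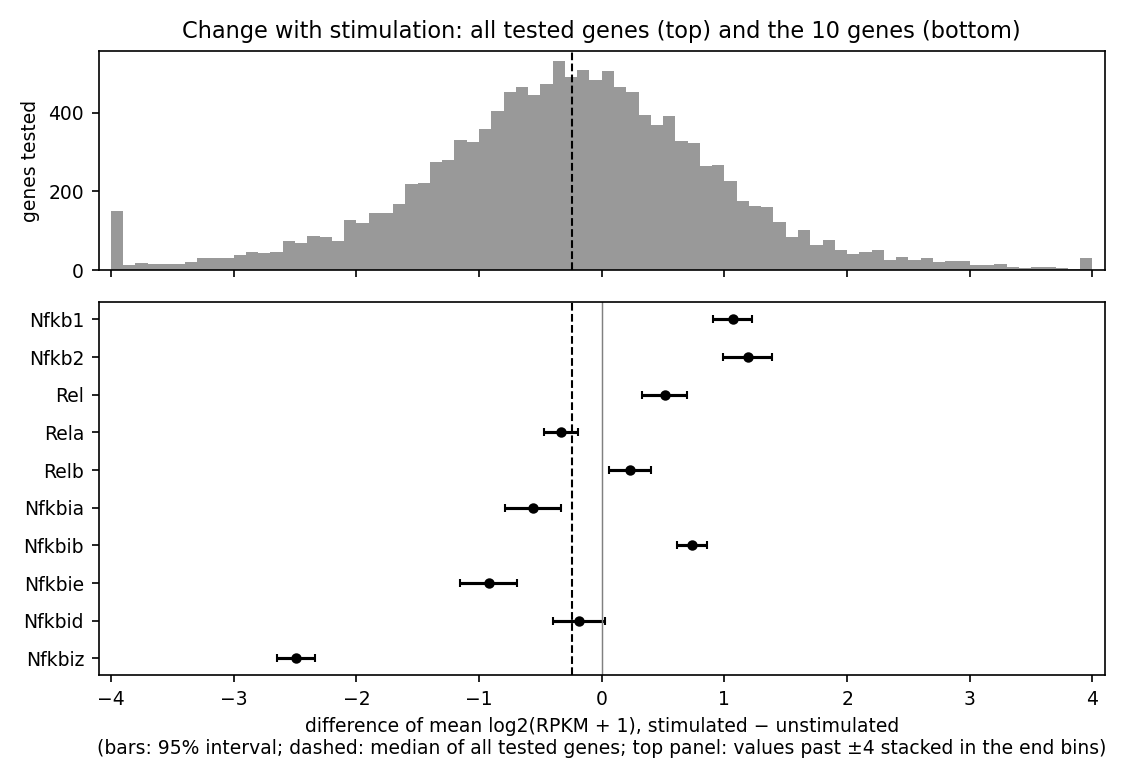
Difference of mean log2(RPKM + 1) between stimulated and unstimulated libraries for all 13288 tested genes (top, histogram) and for the 10 genes (bottom, points with 95% intervals), with the median tested gene dashed at -0.24. Nfkb2 and Nfkb1 lie furthest to the right at 1.19 and 1.07, Rela, Nfkbid and Nfkbia near the dashed line, and Nfkbiz far to the left at -2.49.

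The makeup of the family was also read within each library, where the scaling between libraries plays no part. The summed RPKM of the 5 IκB genes was 1.98, 2.01 and 1.83 times that of the 5 Rel-homology genes in unstimulated libraries and 0.739, 0.766 and 0.81 times in stimulated ones. The ratio thus went from 1.94 ± 0.10 to 0.772 ± 0.04, 2.52-fold lower, from above parity in every unstimulated to below it in every stimulated library. On summed allelic counts, which are not per length, it was 1.09 ± 0.05 unstimulated and 0.306 ± 0.02 stimulated. The level of the ratio thus depends on the measure, whereas it fell on both. As deposited, the sum of the Rel-homology genes went from 112 ± 6.46 to 179 ± 5.56 RPKM and that of the IκB genes from 217 ± 17.4 to 138 ± 2.09. Unlike the ratio, these sums depend on the scaling between libraries. The log2 change of the ratio was -1.33, with values of -1.37 to -1.30 on leaving out any 1 library. These are transcript levels, and p105 and p100 are counted among the Rel-homology genes although the unprocessed proteins inhibit.

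Within the Rel-homology genes the lead in RPKM passed from Rela to Nfkb2. On summed allelic counts, which are not per length, Nfkb1 led in both groups (44.7% ± 0.80 unstimulated and 50.5% ± 1.43 stimulated). Rela held 30.6% ± 1.13 of the summed RPKM of the 5 genes in unstimulated cells and 15.1% ± 0.67 in stimulated cells. Nfkb2 went from 27.5% ± 1.35 to 39.8% ± 0.29 and Nfkb1 from 19.9% ± 0.27 to 26.7% ± 0.80, while Rel was at 12.2% ± 1.33 and 11.1% ± 0.25 and Relb at 9.75% ± 0.52 and 7.23% ± 0.36. The RPKM of Nfkb1 was 0.652 ± 0.02 of that of Rela before and 1.77 ± 0.13 after stimulation. That of Rel was 0.401 ± 0.05 and 0.738 ± 0.03 of the Rela value. On summed allelic counts Nfkb1 was at 3.61 ± 0.10 and 9.16 ± 0.60 times Rela. The level of this ratio thus depends on the measure, whereas it rose on both. Within the IκB genes Nfkbia held 51.3% ± 2.79 and 54.3% ± 0.53 of the summed RPKM, with ranges that overlapped. Nfkbiz went from 20.9% ± 1.66 to 5.24% ± 0.35 and Nfkbib from 5.84% ± 0.39 to 15.8% ± 0.46. On summed allelic counts Nfkbia held 27.1% ± 2.37 unstimulated and 37.3% ± 0.56 stimulated, with ranges apart. Nfkbiz led the unstimulated libraries on that measure, at 45.4% ± 2.53, and was at 14.9% ± 0.64 in stimulated ones. The RPKM of Nfkbia was 3.25 ± 0.26 times that of Rela unstimulated and 2.78 ± 0.06 times stimulated. Relative to Nfkb1 it was 4.99 ± 0.43 and 1.57 ± 0.11 in RPKM, but 0.663 ± 0.06 and 0.227 ± 0.02 on summed allelic counts.

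**Figure D3:**
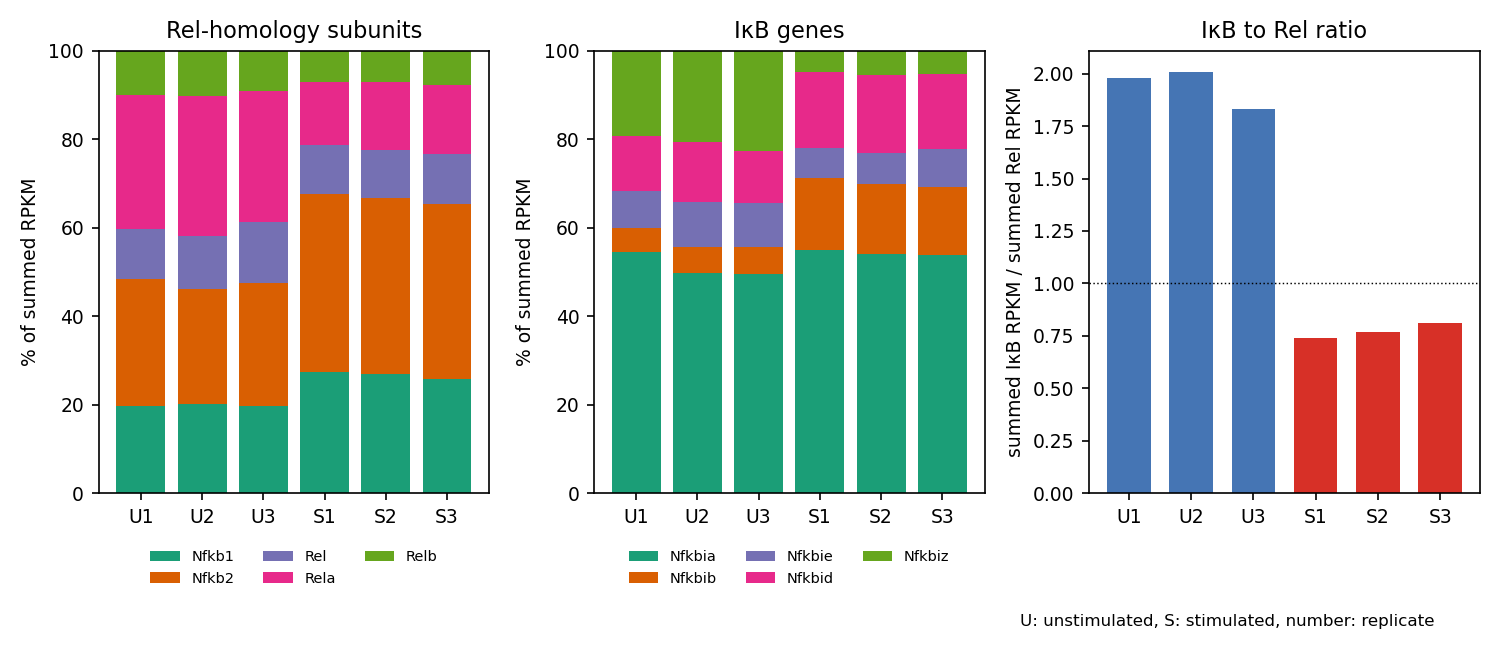
Share of each gene in the summed RPKM of the Rel-homology genes (left) and of the IκB genes (middle), and the ratio of both sums (right), in unstimulated (U) and stimulated (S) libraries by replicate number. The Rela band narrows from 30.6% to 15.1%, the Nfkbiz band from 20.9% to 5.24%, and the ratio drops below 1 in all 3 stimulated libraries.

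The libraries held RNA of other cells, more of it before stimulation. All 12 T cell markers were present in every library, with a summed RPKM of 1006 to 1229 unstimulated and 1121 to 1198 stimulated. The 9 B cell markers summed to 713 to 1089 RPKM unstimulated and 61.2 to 118 stimulated, the 9 myeloid markers to 1282 to 3516 and 31.4 to 38.6, the 5 NK cell markers to 230.4 to 327 and 6.85 to 11.5, and the 7 erythroid and platelet markers to 54.8 to 960 and 1.54 to 10.8. Unstimulated replicate 3 had the highest B cell, myeloid, NK cell and erythroid sums. No marker was listed at 0 in unstimulated libraries; among the stimulated ones 0 to 2 myeloid and 0 to 1 erythroid markers were. Several of the 10 genes are also expressed in B and myeloid cells. The marker sums of these cells were lower in stimulated libraries, as were Nfkbiz, Nfkbie and Nfkbia, and the part of other cells in these falls was not tested. In unstimulated replicate 3 Nfkbia was at 99.8, Nfkbie at 19.9 and Nfkbiz at 45.6 RPKM. Replicates 1 and 2 had 128 and 106, 19.6 and 21.6, and 45.6 and 44.2. In such bulk samples fewer cells of a type and less RNA per cell cannot be told apart.

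The genes around the family were read from lists covering the steps of the pathway. The counts of each list stand against 31.2% of all tested genes higher and 48.9% lower, or 40.9% and 39.2% after median centring. They include 1 gene of the alternative route (Cd40), 1 brake (Tnip3) and 1 target (Csf2) that met the filter on low values only through the group where they are high and so had to differ. On the route from the T cell receptor 3 of 11 genes rose and 7 fell (3 and 4 after median centring), with a list median of -0.24, close to that of all tested genes. Prkcq, a kinase that acts below the T cell receptor, fell by 1.73 and Tab3, an adaptor of the kinase TAK1, by 0.77 on the log2 scale. Of 8 genes for IκB kinases and their relatives 2 rose and 5 fell (2 and 4 after median centring), median -0.54. Ikbkb, the catalytic subunit IKKβ, fell from 14.3 ± 0.41 to 4.27 ± 0.01 RPKM (log2 -1.54) and Ikbke fell by 2.28, while Tbkbp1, an adaptor of the kinase TBK1, rose by 1.77.

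Of 8 tested genes of the alternative route, which leads to p52, 1 rose and 6 fell (1 and 4 after median centring), median -0.65, where 48.9% of all tested genes fell (39.2% after median centring). The receptor genes Ltbr (log2 -1.23) and Tnfrsf13c (-1.06), which are also expressed in myeloid and B cells, and the ubiquitin ligase gene Birc2 (-0.79) fell most, although the call of Tnfrsf13c was lost after quantile normalisation (log2 -0.54, limma adjusted p = 0.0634). Of 14 genes for linear ubiquitin and for brakes on the pathway 3 rose and 9 fell (4 and 7 after median centring), median -0.50. Tnfaip3, which encodes the deubiquitinase A20 and is like Nfkbia a classical NF-κB target, fell from 91.8 ± 13.2 to 24.1 ± 1.52 RPKM (log2 -1.88), and Zc3h12a, the gene of the RNase Regnase-1, fell by 1.33. Tnip3, an A20-binding protein gene, was at 0.332 ± 0.09 RPKM unstimulated and 3.18 ± 0.35 stimulated; it met the filter only through the stimulated group, so its call (log2 1.65) carries no weight.

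Of 6 genes for the destruction of IκB 3 rose and 1 fell (5 and 1 after median centring), median 0.24. Nedd8, the modifier that activates the ligase, rose by 1.02 and Rbx1, its RING subunit, by 0.87, while Btrc, one of its substrate receptors, was at -0.64, a call lost after quantile normalisation (-0.18). Both other genes with IκB-like ankyrin repeats rose, Bcl3, a nuclear partner of p50 and p52, from 10.8 ± 1.46 to 36.6 ± 5.62 RPKM (log2 1.67) and Nfkbil1 by 0.73. Of 21 tested genes from a list of 24 known targets 11 rose and 4 fell (12 and 3 after median centring), where 31.2% of all tested genes rose (40.9% after median centring). The list median was 0.62, and the largest rises were those of Lta, a cytokine of the TNF family (log2 3.96), Irf4, a transcription factor of activated lymphocytes (3.74), and Ier3, an early response gene (2.99). No list as a whole was tested against other genes.

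**Figure D4:**
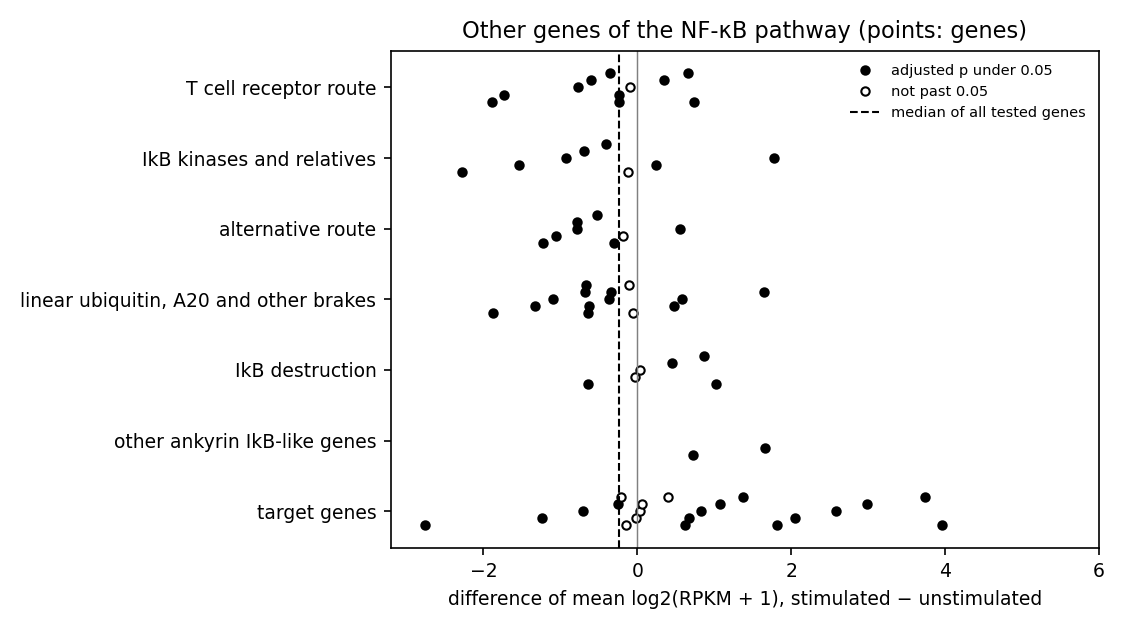
Difference of mean log2(RPKM + 1) between stimulated and unstimulated libraries for other genes of the pathway, by list (points are genes, filled where limma's adjusted p was under 0.05), with the median tested gene dashed. Most points of the 4 upper lists lie left of 0, and most of the targets at the bottom lie right of it, up to Lta at 3.96.

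By likeness of pattern, measured as the root mean square distance between log2(RPKM + 1) values over the 6 libraries after centring each gene on its own mean, the 3 genes nearest to Nfkb2 were Slc35f2, Tyro3 and Stk39 (0.03, 0.03 and 0.05), and 54 tested genes lay within 0.1. The 3 nearest to Nfkbiz were Hbp1, Zfp831 and Il6st (0.04 each), and 44 lay within 0.1.

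The cross allows the parental copies of each gene to be read apart. Allelic reads of the 10 genes, summed over the 3 libraries of a group, numbered from 1443 (Nfkbib) to 15354 (Nfkbiz) in unstimulated cells and from 2869 (Nfkbie) to 49785 (Nfkb1) in stimulated cells. A cast share is the percentage of these reads assigned to the cast allele, and its 95% exact Clopper-Pearson interval, drawn in the plot of cast shares, covers counting error only. The questions were whether the alleles of a gene differed in level within a group and whether stimulation shifted the balance (edgeR quasi-likelihood tests, Benjamini-Hochberg over 12470 autosomal genes).

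In unstimulated cells 4 of the 10 genes had a lower cast than mus level (Rel, Nfkbia, Nfkbid and Nfkbiz) and none a higher one, against 30.8% of autosomal genes tested that differed in either direction and 18.5% with cast lower. These tests took equal parts as the null, whereas the median autosomal gene leaned to mus (log2 cast to mus -0.06 unstimulated and -0.05 stimulated). With the autosomal median as the null only Rel and Nfkbia kept their unstimulated calls. In stimulated cells 3 of the 10 differed, Nfkb1 with cast higher and Nfkb2 and Nfkbia with cast lower, against 35.9% in all, 15.4% with cast higher and 20.5% with cast lower. Among the 3541 genes covered at least as deeply as the least covered of the 10 these shares were 41.3% and 46.4%, and the members' counts do not exceed them. All cast shares of the 10 genes lay between 41.5% and 55.5%, so that neither allele was close to absent from the RNA of any library.

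The balance shifted with stimulation for 3 of the 10 genes, each toward cast, where 10.9% of autosomal genes (5.95% toward cast and 4.96% toward mus) and 18.6% of the equally covered ones changed. For Nfkb1 the cast share was 49.8%, 48.4% and 47.7% in unstimulated replicates 1 to 3 and 53.5%, 55.5% and 52.5% in stimulated ones. The groups were apart, and with them all same-numbered pairs, as they also were for some of the genes whose change did not pass. The shift passed (log2 ratio change 0.30, edgeR adjusted p = 0.0023), also without any 1 library. Both alleles contributed to the rise of Nfkb1, which per M allelic reads was 2.04-fold for mus and 2.51-fold for cast.

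Nfkbiz, which fell, shifted the same way. Its cast share was 46.9%, 44.7% and 47.9% unstimulated and 52.8%, 53.2% and 50.5% stimulated (log2 ratio change 0.33, edgeR adjusted p = 0.011), with all stimulated values above all unstimulated ones. Per M allelic reads its mus level went to 0.165 and its cast level to 0.207 of the unstimulated value. The call was lost without unstimulated replicate 2 (adjusted p = 0.057) and without stimulated replicate 2 (adjusted p = 0.0529). Nfkbid, whose total did not pass, had cast shares of 45.9%, 47.8% and 45.9% unstimulated and 54.4%, 51.0% and 52.1% stimulated (log2 ratio change 0.34, edgeR adjusted p = 0.025). These values were apart as well, but the call was lost without unstimulated replicate 1 or 3 (adjusted p = 0.0778 and 0.0705), without stimulated replicate 1 or 3 (0.099 and 0.0573) and with DESeq2 (0.0742).

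**Figure D5:**
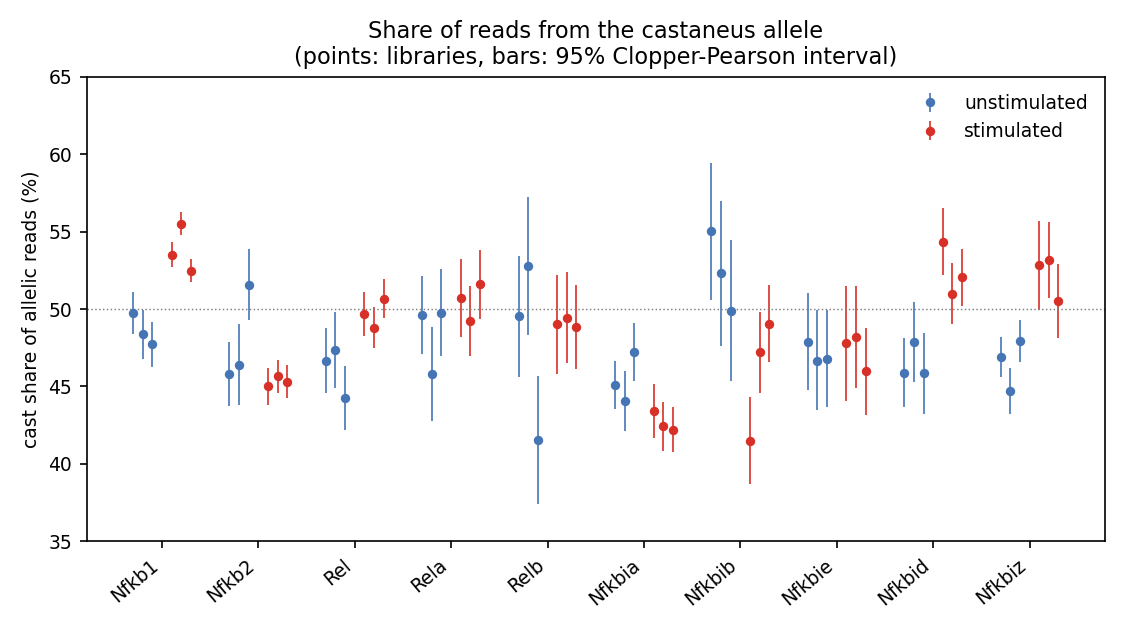
Share of allelic reads from the cast allele for each of the 10 genes, by library (points) with 95% Clopper-Pearson intervals, unstimulated in blue and stimulated in red. Red points lie above blue ones for Nfkb1, Rel, Nfkbid and Nfkbiz and below them for Nfkb2, Nfkbia and Nfkbib. Both groups lie below 50% for Nfkbia.

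Nfkbia was the only one of the 10 genes whose imbalance passed in both groups. Its cast share was 45.1%, 44.0% and 47.2% unstimulated and 43.4%, 42.4% and 42.2% stimulated, below 50% in all 6 libraries (log2 cast to mus -0.26 and -0.43, edgeR adjusted p = 0.0012 and 8.7e-06), and both calls passed in all alternatives run. The further lowering with stimulation did not pass (log2 -0.16, adjusted p = 0.191). Nfkb2 was at 45.8%, 46.4% and 51.6% unstimulated and 45.0%, 45.6% and 45.3% stimulated. Its imbalance passed in stimulated cells (log2 -0.27, adjusted p = 0.0012) and not in unstimulated ones (-0.12, adjusted p = 0.155), where it did without replicate 3, the library at 51.6% (-0.23, adjusted p = 0.0071), and the change itself did not pass (adjusted p = 0.298).

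For Rel the cast share was 46.7%, 47.4% and 44.3% unstimulated and 49.7%, 48.8% and 50.7% stimulated. The groups were apart, but the change did not pass (log2 0.21, edgeR adjusted p = 0.0894), and the unstimulated imbalance (log2 -0.23, adjusted p = 0.0047) was lost without replicate 3 (adjusted p = 0.0528). In unstimulated cells the imbalances of Nfkbid (log2 -0.20, adjusted p = 0.031) and Nfkbiz (-0.20, 0.0074) were lost when the median autosomal ratio took the place of equal parts (adjusted p = 0.143 and 0.0581). That of Nfkbid was also lost without unstimulated replicate 1 or 3 (adjusted p = 0.134 and 0.12) and with DESeq2 (0.0973), and that of Nfkbiz without unstimulated replicate 2 (0.0992).

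The remaining genes showed no allelic difference past the threshold. Rela, at 45.8% to 49.8% unstimulated and 49.2% to 51.6% stimulated, had a log2 change of 0.12 (edgeR adjusted p = 0.562). Relb spread from 41.5% to 52.8% in unstimulated libraries, with replicate 3 lowest, and from 48.9% to 49.4% in stimulated ones. Nfkbie stayed at 46.0% to 48.2% in all 6 libraries. Nfkbib, at 49.9% to 55.0% unstimulated and 41.5% to 49.0% stimulated, had the largest change of the 10 (log2 -0.37) with groups apart, but its spread was wide and the change did not pass (adjusted p = 0.144).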

How the data were processed

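RNA of 6 libraries was sequenced after ribosomal RNA removal with a stranded kit, per the labels' protocols. The deposited tables hold RPKM for both alleles together and, per the file headers, counts for the C57BL/6 and the castaneus allele. The submitters' processing notes name STAR 2.7.1a, featureCounts and mm10. Annotation, strand setting, RPKM denominator and allele assignment are not stated there. Allelic depth was 9.61 M to 20.2 M reads per library. Low RPKM values lay within 0.02 read of multiples of 0.5 reads in 93.3% to 93.9% of cases, with steps that correspond to 12.7 M to 30.4 M reads. Positions and lengths came from GENCODE M21 (99.5% of identifiers matched).

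Diploid values, as log2(RPKM + 1), were tested with limma 3.58.1 (moderated, with trend, two-sided; R 4.3.3), which understates changes of low genes. Genes needed an RPKM of 1 or more in 3 or more libraries. For the allelic counts, the two-sided quasi-likelihood test of edgeR 4.0.16 was fitted with a term for each library and an allele effect in each group, where both groups had 30 or more allelic reads. DESeq2 1.42.0 was an alternative. The threshold was a Benjamini-Hochberg adjusted p of 0.05 over all genes of a fit. Fits were tested on simulated data. Replicates differed beyond sampling noise (chi-square per degree of freedom 5.52 to 24.6).

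As a check of pairing, cast to mus log2 ratios (9043 genes, group means removed) had correlations across genes of 0.28, 0.30 and 0.18 for equal replicate numbers, and diploid log2 values of 0.00603, 0.0611 and 0.0908. The numbers thus pair the samples in the allelic data alone; what equal numbers share is not in the labels. The 10 genes and the gene lists were chosen with earlier results of these data known. All 10 are named, with up to 3 genes of each pathway list that changed most and the 3 genes nearest in pattern to the member with the largest rise and to that with the largest fall. A gene that this rule names is not reported here. Itgam, on 2 rows, was read from the row with the higher mean.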

Additional observations from a re-analysis of the deposited data

Results flagged for a closer look

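The ratio of cast to mus reads differed between unstimulated and stimulated cells, by the test of the difference itself (edgeR, interaction of allele and group), for 3 of the 10 genes. This held for 10.9% of autosomal genes tested and 18.6% of those covered at least as deeply as the least covered of the 10. The log2 change was 0.30 for Nfkb1, 0.34 for Nfkbid and 0.33 for Nfkbiz, with every stimulated cast share above every unstimulated one for each gene. The groups were also apart for Rel, Nfkb2, Nfkbia and Nfkbib, whose changes did not pass. How many autosomal genes have groups apart was not counted, so the separation adds nothing to the calls. The median absolute change over the 12470 autosomal genes tested was 0.26. What sets the shifts was not tested.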

How the results depend on the processing

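The rises of Nfkb1, Nfkb2, Rel and Nfkbib and the falls of Nfkbie and Nfkbiz in diploid level kept their direction and their call in all 14 alternatives run, and the cast shift of Nfkb1 did in all 11 of its alternatives. The number of members called lower was 2 in place of 4 after median centring and with edgeR or DESeq2 on summed allelic counts. Nfkbid turned positive there (log2 0.0742, 0.19 and 0.16), as did Rela on the counts (0.0811 and 0.0525). Of all tested genes 39.2% were called lower after median centring, in place of 48.9%. In unstimulated cells 2 members in place of 4 had cast lower when the autosomal median was the null, and in stimulated cells 3 in place of 1 had cast higher, with Nfkbid and Nfkbiz added and Rel at 0.0286. With that null 3642 of 12470 genes differed in unstimulated and 4431 in stimulated cells, in place of 3835 and 4479. The cause was not tested.

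Leaving out 1 library gave 8457 to 9707 genes with a diploid change, over fewer genes tested, and 995 to 1106 with a changed cast share. It turned the sign of small values: the cast share change of Nfkbie (-0.0172 to 0.0499) and Relb (-0.12 to 0.20), the unstimulated ratio of Relb (-0.26 to 0.0638), and the stimulated ratios of Rel (-0.0441 to 0.0105) and Rela (-0.001175 to 0.0678). With the replicate block 10464 genes had a diploid change and 1686 a changed cast share (main fits 10642 and 1361), 4067 and 4762 genes differed between alleles in unstimulated and stimulated cells, and no member's call changed.

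The log2 change of the IκB to Rel ratio, -1.33, was -1.84 on summed allelic counts, which are not per length. Chosen after seeing the data, it was -1.42 without Nfkbia, -1.07 without Nfkbiz and -1.06 without Nfkb2. Allelic depth limits Relb, Nfkbib and Nfkbie most, the genes with the fewest reads.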
